A study of Canis lupus familiaris with 7 samples.

Results

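The natriuretic peptide genes NPPB and NPPC, their receptors NPR1, NPR2 and NPR3, and the processing enzymes CORIN and FURIN were examined in the left ventricle of dogs on a low-salt diet and of control dogs. All probe sets (groups of short probes aimed at 1 transcript) whose single gene symbol in the platform annotation is one of these 7 genes were taken, which gave 13 probe sets of the 43035 on the array, for 7 of the 15115 genes it names. NPPA, the gene of atrial natriuretic peptide, was not named by this annotation and was not analysed here. The animals were adult male mongrel dogs. The low-salt group, 4 arrays numbered 1 to 4, ate a diet with 0.5% sodium chloride for 2 weeks, and the control group, 3 arrays numbered 1, 3 and 4, has no stated salt content or feeding time. The comparison asks which ventricular transcripts differ when dietary salt is low. The labels do not say that each array is a separate animal, and 10 dogs are mentioned for the diet in the series record. The p-values therefore describe the spread among these arrays, which may be technical.

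B-type natriuretic peptide, the product of NPPB, is released by ventricular muscle cells under wall stretch, widens blood vessels and makes the kidney excrete salt and water. NPPC encodes C-type natriuretic peptide, which acts mainly close to the endothelial cells that make it. NPR1 binds the atrial and B-type peptides and NPR2 binds the C-type peptide, and both receptors make cyclic GMP inside the target cell. NPR3 lacks the cyclase and takes peptides up for breakdown. Corin, a membrane protease of heart muscle cells, cleaves the atrial precursor, and the protease furin cleaves the precursors of the B-type and C-type peptides.

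No member probe set passed the test of low salt against control after adjustment over the array. Of the 13 member probe sets, 11 were bright enough to be tested, at least 1 for each of the 7 genes. By limma with Benjamini-Hochberg adjustment 0 of the 11 passed an adjusted p of 0.05, against 0.346% of all 28616 tested probe sets, and their adjusted p ran from 0.399 to 0.98. At an unadjusted p under 0.05 stood 2 of the 11, 1 each for NPPC and NPR2, where 11% of all tested probe sets stood. The methods' t-test, the test named in the design text without its variance stabilization, gave 0 after adjustment and 1 at an unadjusted p under 0.05. A change is the low-salt mean minus the control mean of log2(signal + 16), a scale that understates the change of dim transcripts. At the design text's threshold, an unadjusted p of 0.05 together with a 2-fold change, stood 0 members and 4.4% of all probe sets. That 0 depends on the scale. NPPC met both cuts with an offset of 1 in place of 16 (-1.62, limma unadjusted p = 0.0404). It also met them with the values as deposited (-1.24, limma unadjusted p = 0.018), among other fits. The shares of all probe sets in those fits are not given here. On the normalized log2(signal + 16) scale 8 of the 11 were above 0 and 3 below, where 46.2% of all tested probe sets were below. Their median was 0.30, beside 0.04 over all tested probe sets. NPR2 and NPR3 count with 3 tested probe sets each, all above 0. As 1 mean per gene, NPPB, NPR1, NPR2 and NPR3 were above 0 and NPPC, CORIN and FURIN below. The plot of changes with their intervals shows how wide each one was.

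**Figure D1:**
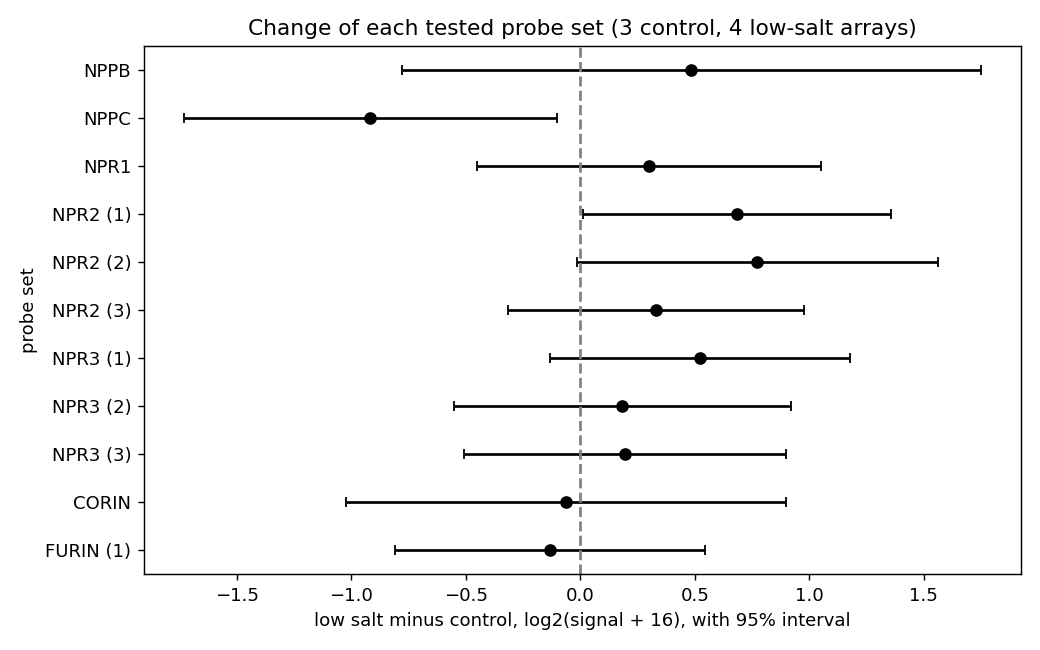
Change of the 11 tested probe sets, low salt minus control on the log2(signal + 16) scale (horizontal axis), with the 95% interval of the limma fit over 3 control and 4 low-salt arrays. The intervals of NPPC (-1.73 to -0.10) and of the brightest NPR2 probe set (0.01 to 1.36) lie to 1 side of 0, and neither passed after adjustment.

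NPPB varied more between arrays of the same group than between the groups. Its probe set (CfaAffx.25295.1.S1_at) had deposited signals of 42.4, 119.6 and 22.2 on control arrays 1, 3 and 4, and of 67.7, 35.5, 24.6 and 184 on low-salt arrays 1 to 4. Low-salt 4 and control 3 were the highest and control 4 and low-salt 3 the lowest, so the groups overlapped, over an 8.3-fold range. On the normalized log2 scale the level was 5.87 ± 1.14 (SD, n = 3) in controls, against 6.35 ± 1.11 (SD, n = 4) under low salt. The difference of 0.49 ± 0.59 (SE) had a limma adjusted p of 0.805. The 95% interval of this difference, -0.78 to 1.75, spans 0.583 to 3.36 times the control value of signal + 16, which is not a ratio of the signal itself. Among the 11 tested probe sets NPPB had the largest SD over the 7 arrays, 1.05. Single arrays decided the difference, which was 1.10 without control 3, 0.92 without low-salt 3, 0.04 without low-salt 4 and -0.01 without control 4.

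The NPPB signal stood in roughly the reverse order of the median brightness of the arrays, with low-salt 1 and 2 out of line. Each array had been scaled to the same trimmed mean, yet the median signals were 39.6, 31.5 and 51.3 on control arrays 1, 3 and 4 and 21.8, 21.6, 44.2 and 19.3 on low-salt arrays 1 to 4. Control 4 and low-salt 3, lowest in NPPB, had the highest medians, and low-salt 4, highest in NPPB, had the lowest. The part of this brightness in the NPPB values was not tested. Atrial muscle, which expresses natriuretic peptides strongly, was checked through 10 markers, of which 7 were named and 6 tested, with a summed normalized signal of 4297 to 8668 in controls and 4129 to 8004 in low salt. By array the sums were 6541, 8668 and 4297 on control arrays 1, 3 and 4, the order of NPPB in these controls, and 4716, 4129, 8004 and 6393 on low-salt arrays 1 to 4, where low-salt 3 had the highest sum and the lowest NPPB. Their part in the NPPB values was not tested. The median change of the 6 was -0.22, and 2 of them stood lower at an unadjusted p under 0.05, where 5.78% of all tested probe sets did, the atrial light chain MYL4 by -2.14 ± 0.65 (SE, limma adjusted p = 0.258) and the transcription factor NR2F2 by -0.75 ± 0.22 (SE, limma adjusted p = 0.248). The atrial light chain MYL7, the brightest of these markers on most arrays, differed by 0.39 ± 0.21 (SE), KCNA5 by -0.25, GJA5 by -0.19 and BMP10 by 0.01. Other probe sets were at -1.69 for MYL4 and at -0.69 and -0.10 for NR2F2. That of KCNA5 was at 0.11 and those of GJA5 at -0.004 and 0.59.

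NPPC was the member that stood lowest in low salt against control. Its probe set (CfaAffx.17373.1.S1_at) had deposited signals of 42.8, 29.9 and 87.2 on control arrays 1, 3 and 4, and of 3.92, 14.4, 32.7 and 4.04 on low-salt arrays 1 to 4. Control 4 was highest, low-salt 1 and 4 were lowest, and as deposited the groups overlapped in 1 place, low-salt 3 lying above control 3. After normalization every low-salt array lay below every control array, the only such case among the 11 tested members, where 10.8% of all tested probe sets showed no overlap in either direction. The normalized level was 5.80 ± 0.39 (SD, n = 3) in controls, against 4.88 ± 0.44 (SD, n = 4) under low salt, a difference of -0.92 ± 0.38 (SE), with a limma unadjusted p of 0.0301 and adjusted p of 0.399. The 95% interval, -1.73 to -0.10, spans 0.301 to 0.931 times the control value of signal + 16, which is not a ratio of the signal itself. This difference did not pass over the array, and without control 4 it was -0.68 with a limma unadjusted p of 0.133.

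The low-salt mean of NPPC lies under the limit of 5.004 that the filter on dim probe sets set for the mean over all arrays, and the probe set was tested because of its control values. The lack of overlap and the p-value above come from a probe set admitted in that way. Without the filter its limma unadjusted p was 0.0361 and its adjusted p 0.475. With low-salt values this dim, the size of the NPPC difference depends on the offset, from -0.42 with an offset of 64 to -1.62 with an offset of 1. NPPC signals also went with the array medians, control 4 being highest and low-salt 1, 2 and 4 being the lowest in both. Divided by the median of the array, the NPPC signal was 1.08, 0.95 and 1.70 in controls 1, 3 and 4 and 0.18, 0.667, 0.74 and 0.21 in low-salt 1 to 4, which leaves the groups apart. The share of all probe sets that lie apart on that scale is not given here. Of 10 endothelial and endocardial markers, the cells that make C-type peptide, all 10 were tested, 8 were below 0 with a median of -0.13 over the 10, and 0 stood at an unadjusted p under 0.05 in either direction. Their part in the NPPC difference was not tested. Their summed normalized signal was 7085 to 8768 in controls and 6244 to 8332 in low salt, most of it from PECAM1. In such bulk tissue fewer cells of a type and less RNA per cell cannot be told apart. Of the measures of RNA integrity, the 3' to 5' ratio of GAPDH ran from 2.43 to 2.78 in controls and 2.03 to 2.41 in low salt, apart by a thin margin. A second GAPDH ratio, from other control probe sets, was higher, at 22.7 to 40.9 in controls and 14.5 to 22.6 in low salt. It too lay apart by a thin margin and was lower in low salt. The actin ratio overlapped, at 0.679 to 1.10 in controls and 0.354 to 1.11 in low salt. The part of RNA integrity in the NPPC difference was not tested.

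**Figure D2:**
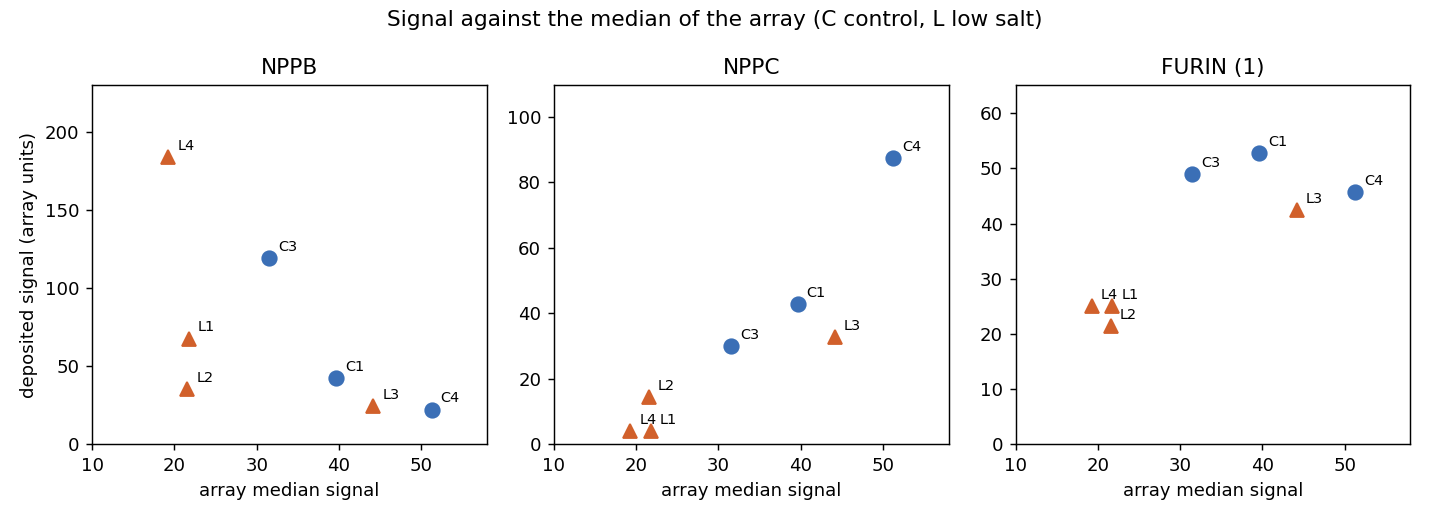
Deposited signal (vertical axis, array units from 0) of NPPB, NPPC and the tested FURIN probe set against the median signal of the same array (horizontal axis), 1 point per array, with circles for the 3 controls and triangles for the 4 low-salt arrays. NPPB is highest on low-salt 4 (184), the array of lowest median, while NPPC is highest on control 4 (87.2), the array of highest median.

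After quantile normalization the C-type peptide receptor NPR2 stood higher in low salt in all of its 3 probe sets, without passing the test over the array. The brightest (Cfa.12543.1.A1_s_at, NPR2 (1) in the plots) had deposited signals of 122.2, 52.4 and 130.6 on control arrays 1, 3 and 4, and of 83.5, 145.9, 165.4 and 188.7 on low-salt arrays 1 to 4. Low-salt 2, 3 and 4 lay above all controls and low-salt 1 lay between them. Divided by the array median, the values were 3.08, 1.67 and 2.55 in controls 1, 3 and 4 and 3.83, 6.76, 3.74 and 9.79 in low-salt 1 to 4, without overlap. How large a share of all probe sets lies apart on that scale is not given here. The normalized level of NPR2 (1) was 6.67 ± 0.49 (SD, n = 3) in controls, against 7.35 ± 0.38 (SD, n = 4) under low salt, a difference of 0.68 ± 0.31 (SE) with a limma unadjusted p of 0.0471 and adjusted p of 0.446.

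A second NPR2 probe set, Cfa.12543.1.A1_at or NPR2 (2), is listed with the same source sequence as the first and so is no independent reading. It had signals of 44.3, 141.1 and 83.6 on control arrays 1, 3 and 4, and of 96.3, 86.1, 165.4 and 137.9 on low-salt arrays 1 to 4. The difference was 0.77 ± 0.37 (SE), with a limma adjusted p of 0.464. In the controls these 2 probe sets disagreed on which array was low: control 1 was the lowest of all 7 arrays in the second and the highest control after normalization in the first, and control 3 was the highest control in the second and the lowest of all 7 in the first. Leaving out control 3 moved the first to 0.40 and the second to 1.24, and leaving out control 1 moved them to 0.84 and 0.43. The third (CfaAffx.4230.1.S1_at, NPR2 (3)) ran from 54.2 to 72.7 in controls and from 37.2 to 76.1 in low salt. Its normalized difference was 0.33 ± 0.30 (SE), with a limma adjusted p of 0.724, and with the values as deposited it was -0.049.

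Averaged over its 3 probe sets, the NPR2 level was 6.37 ± 0.15 (SD, n = 3) in controls, against 6.96 ± 0.28 (SD, n = 4) under low salt. The normalized averages were 6.22, 6.52 and 6.36 on control arrays 1, 3 and 4, and 6.62, 6.92, 6.997 and 7.31 on low-salt arrays 1 to 4, so the groups did not overlap. None of the 3 probe sets alone kept the groups apart after normalization. NPR2 (1) and NPR2 (2), of the same source sequence, had control SDs of 0.49 and 0.84. Their opposite order on controls 1 and 3 cancels in the average, and its control SD of 0.15 rests partly on this. In a fit of 10076 genes, each as the mean of its probe sets, NPR2 differed by 0.60 ± 0.22 (SE), which is 1.51-fold in signal + 16. The limma unadjusted p of NPR2 was 0.019 (0.0591 without control 1 and 0.0635 without low-salt 4). The adjusted p was 0.391, where 0.0695% of genes passed an adjusted p of 0.05. NPPC, with its 1 probe set, was the other member at an unadjusted p under 0.05 there, 2 of 7 where 10.3% of all genes stood, and the other member without overlap, which 10.3% of all genes showed. With the values as deposited the NPR2 averages of the groups overlapped and the difference was 0.30 (limma adjusted p = 0.63). The GAPDH ratios given above, lower in low salt, also lay apart between the groups, and their part in the NPR2 difference was not tested.

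NPR1, the receptor of the atrial and B-type peptides, did not separate the groups. Its probe set (CfaAffx.26785.1.S1_s_at) had deposited signals of 21, 31.3 and 43 on control arrays 1, 3 and 4, and of 20.3, 29.2, 67.6 and 11.4 on low-salt arrays 1 to 4, low-salt 3 and 4 being the highest and the lowest of all. The normalized difference was 0.30 ± 0.35 (SE), with a limma adjusted p of 0.795 and a 95% interval of -0.45 to 1.05. With the values as deposited it was -0.09.

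NPR3, the clearance receptor, has 4 probe sets, and none of the 3 that could be tested passed. The brightest (Cfa.19694.2.A1_at, NPR3 (1)) had signals of 60.6, 107.8 and 78.1 on control arrays 1, 3 and 4, and of 78.6, 101.5, 116.2 and 80.8 on low-salt arrays 1 to 4. After normalization its low-salt arrays lay close together, at 6.87 ± 0.11 (SD, n = 4), while control 3 (6.97) stood among them and controls 1 (6.003) and 4 (6.08) stood below. The difference was 0.52 ± 0.30 (SE), with a limma adjusted p of 0.562. CfaAffx.28818.1.S1_at, NPR3 (2), and Cfa.19694.1.S1_s_at, NPR3 (3), differed by 0.18 ± 0.34 and 0.20 ± 0.33 (SE), and both were below 0, at -0.25 and -0.23, with the values as deposited. NPR3 (2) was at 0.00 without low-salt 2, the array on which it was highest. The fourth (Cfa.19694.1.S1_at) was too dim to be tested, with signals of 1.14 to 12.4 in controls and 1.49 to 2.96 in low salt. The plot of receptor probe sets shows these levels by array.

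**Figure D3:**
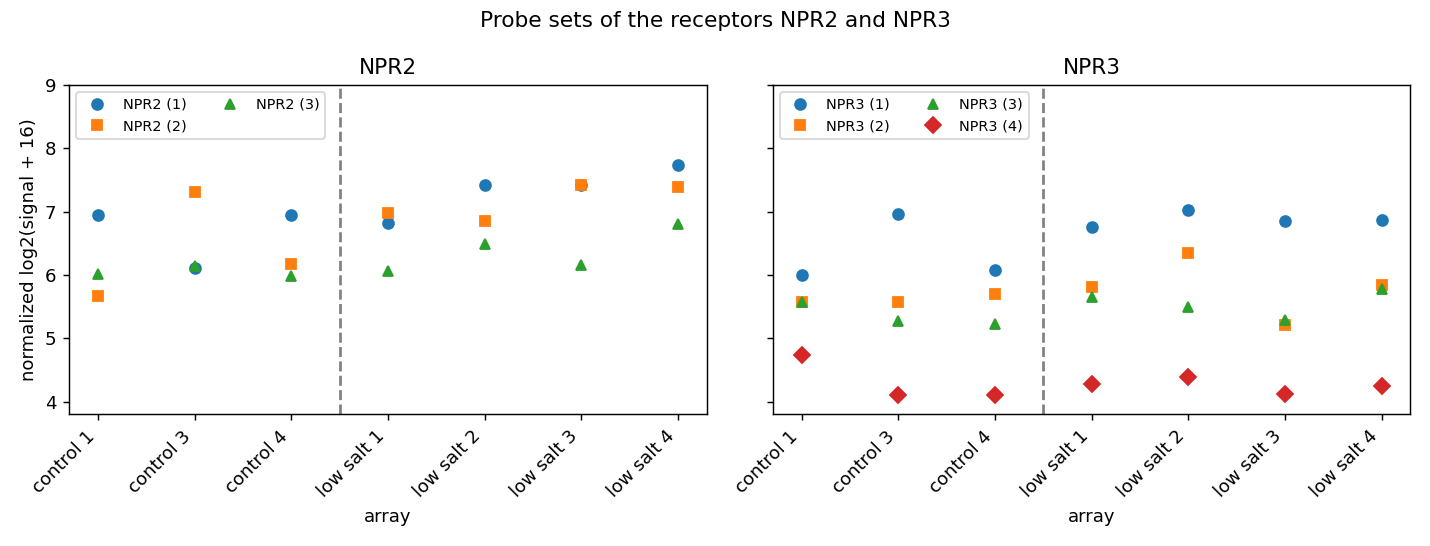
Normalized log2(signal + 16) (vertical axis) of the 3 NPR2 and 4 NPR3 probe sets on each of the 7 arrays (horizontal axis, with a dashed line between controls and low salt), numbered from the brightest in controls. NPR2 (1) and NPR2 (2) are in opposite order on controls 1 and 3, and NPR3 (4) lies near the bottom on every array.

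CORIN did not separate the groups, and 1 array stood apart. Its probe set (Cfa.670.1.S1_s_at) had deposited signals of 57.4, 45.8 and 48.7 on control arrays 1, 3 and 4, and of 46.8, 4.74, 42.6 and 62.5 on low-salt arrays 1 to 4. Low-salt 2 lay far below the rest, at a signal too dim for a fold to be read from it. The normalized values were 5.95, 5.95 and 5.51 in controls 1, 3 and 4 and 6.28, 4.55, 5.53 and 6.61 in low-salt 1 to 4, so the other 6 arrays spread as well, low-salt 1 and 4 lying above and low-salt 3 among the controls. The normalized levels were 5.80 ± 0.25 (SD, n = 3) and 5.74 ± 0.91 (SD, n = 4), a difference of -0.06 ± 0.45 (SE) with a limma adjusted p of 0.98. Without low-salt 2 the difference was 0.33 (limma adjusted p = 0.848). The summed normalized signal of 10 heart muscle cell markers was 76674 to 84943 in controls and 77506 to 85071 in low salt, with low-salt 2 at 85071, and the part of these cells in the CORIN values was not tested.

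FURIN showed a separation of the groups that depended on the scaling. The tested probe set (Cfa.21237.1.S1_at, FURIN (1)) had deposited signals of 52.7, 49 and 45.7 on control arrays 1, 3 and 4, and of 25, 21.5, 42.5 and 25.1 on low-salt arrays 1 to 4, so that as deposited every low-salt array lay below every control. The share of all probe sets without overlap as deposited is not given here, and the median change of all tested probe sets on that scale was -0.18. Divided by the array median the FURIN (1) values were 1.33, 1.56 and 0.891 in controls 1, 3 and 4 and 1.15, 0.995, 0.962 and 1.30 in low-salt 1 to 4, and the groups overlapped. With quantile normalization the difference was -0.13 ± 0.32 (SE), with a limma adjusted p of 0.915, and with the values as deposited it was -0.57 (limma adjusted p = 0.528). The other FURIN probe set (CfaAffx.19203.1.S1_s_at) was too dim to be tested, with signals of 7.14 to 37.2 in controls and 6.58 to 22.3 in low salt.

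**Figure D4:**
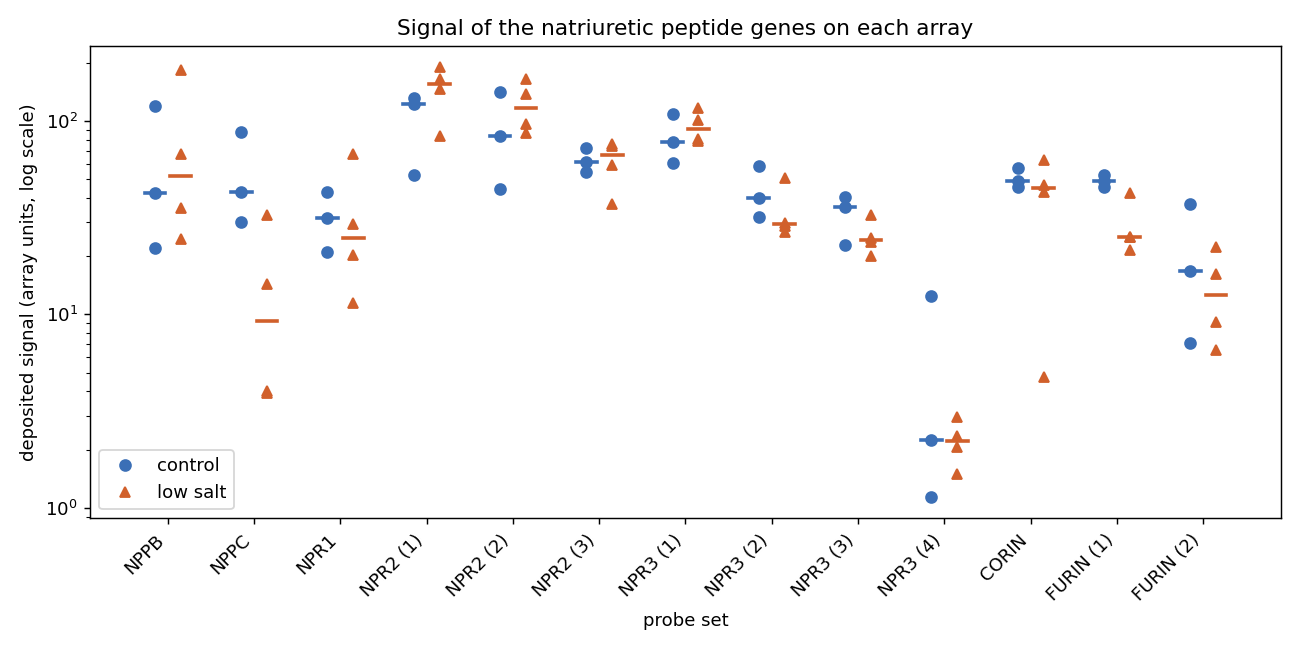
Deposited signal (vertical axis, array units, log scale) of all 13 probe sets (horizontal axis) on each array, circles for the 3 controls and triangles for the 4 low-salt arrays, with a bar at each group's median. As deposited only FURIN (1) has all low-salt points (21.5 to 42.5) below all control points (45.7 to 52.7), and CORIN has 1 point (4.74) far below the rest.

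The scaling of the arrays shifted the changes of the members and of the array as a whole. Over all tested probe sets quantile normalization gave a median change of 0.04, the deposited scale one of -0.18, and equal array medians one of 0.26. Measured from that median, NPPC differed by -0.95 with quantile normalization and by -1.06 with the other scalings. Those give the same value by construction, as equal medians only shift each array by a constant, and so count as 1 reading. For NPR2 (1) the difference from the median was 0.65 and 0.66, for NPR2 (2) 0.74 and 0.62, for NPPB 0.45 and 0.37, and for NPR1 0.26 and 0.09. FURIN (1) differed from the median by -0.17 and -0.39 and CORIN by -0.10 and -0.25. NPR3 (2) and (3) changed sign relative to the median, from 0.15 and 0.16 to -0.07 and -0.06.

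**Figure D5:**
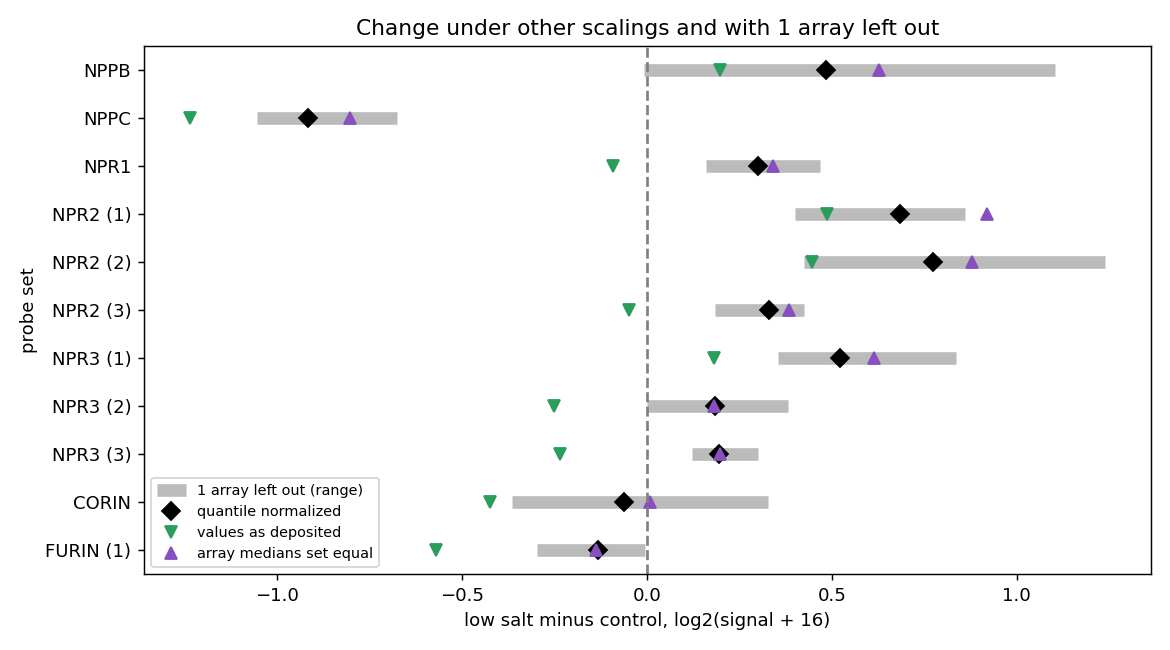
Change of the 11 tested probe sets, low salt minus control on the log2(signal + 16) scale (horizontal axis), quantile normalized (diamonds), on the deposited scale (downward triangles), on equal array medians (upward triangles) and over the fits with 1 of the 7 arrays left out (grey bars). NPPC stays below 0 and NPR2 (1) and (2) stay above 0 in all of those fits, and NPPB spans -0.01 to 1.10 with 1 array left out.

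Other genes of the pathway were read from 5 lists, with the brightest tested probe set of each gene, and 0 of their 49 tested genes passed an adjusted p of 0.05 by limma. Of these, 1 stood higher and 2 lower at an unadjusted p under 0.05, where 5.27% of all tested probe sets stood higher and 5.78% lower. Among the enzymes around the peptides (6 of 9 genes tested, median -0.17, 0 at an unadjusted p under 0.05) the proprotein convertase PCSK5 differed by -0.34 ± 0.26 (SE), neprilysin (MME), which degrades natriuretic peptides, by -0.39 ± 0.38, DPP4 by -0.25 and the insulin-degrading enzyme IDE by 0.10. Less bright probe sets ran from -0.50 to 0.42 for PCSK5 and from -0.97 to 0.32 for IDE, and that of DPP4 was at -0.02. PCSK6, the convertase that activates corin, was too dim to be tested.

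Downstream of the receptors, the phosphodiesterases that act on cyclic GMP (5 of 9 tested) had a median change of -0.50, with 4 of 5 below 0. PDE5A, which breaks down cyclic GMP, differed by -0.94 ± 0.36 (SE, limma adjusted p = 0.371), and its other probe sets by -0.85 and -0.40. PDE3A differed by -0.57 ± 0.31, PDE1C by -0.50 ± 0.30 and PDE1A by 0.55 ± 0.30 (SE). The less bright probe sets of these 3 lay nearer to 0, at -0.06 for PDE3A, -0.47 and -0.06 for PDE1C and 0.05 for PDE1A. Cyclic GMP effectors and soluble guanylate cyclase (8 of 15 tested) had a median of -0.04. GUCY1A1, a subunit of the cyclase that nitric oxide activates, differed by -0.68 ± 0.30 (SE, limma adjusted p = 0.434), PPP1R12A, the regulatory subunit of myosin phosphatase, by -0.53 ± 0.29, VASP, a kinase substrate at actin filaments, by 0.32 ± 0.25 and the cyclase subunit GUCY1B1 by 0.08. Less bright probe sets were at 0.12 for PPP1R12A, against the sign of the one named, and at 0.02 for GUCY1B1.

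Upstream of the peptides, transcription factors of natriuretic peptide genes (14 of 19 tested) had a median of 0.09 and 0 at an unadjusted p under 0.05. The cardiac homeobox factor NKX2-5 differed by 0.49 ± 0.27 (SE, limma adjusted p = 0.542), YAP1 by 0.39, TEAD1 by -0.31 and NFATC4 by -0.28. Other probe sets were at 0.58 for NKX2-5 and 0.02 for TEAD1. GATA4, TBX5 and TBX20 were too dim to be tested. Genes that follow wall stretch and hypertrophy, as NPPB is known to do, had a median of 0.01 over 16 of 20 tested. Adrenomedullin (ADM), a vessel-widening peptide, differed by 0.52 ± 0.22 (SE, limma adjusted p = 0.399), galectin 3 (LGALS3) by 0.53 ± 0.27, XIRP2 by -0.49 ± 0.26 and XIRP1, a stretch-responsive protein of the intercalated disc, by 0.85 ± 0.52 (SE). Less bright probe sets were at 0.35 for XIRP2, against the sign of the one named, and at 0.17 and 0.74 for LGALS3.

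The probe sets whose pattern over the 7 arrays was nearest to that of a member were sought among 19659 tested probe sets of other genes, by the root mean square distance after each was set to its own mean. For NPPB these were PTPRA (0.18 on the log2 scale), CIZ1 (0.29) and NXN (0.31). TRPC2 (0.09), MTSS2 (0.13) and RANGAP1 (0.14) were nearest to NPPC, and REG3A (0.14), CAPN10 (0.18) and NEMP2 (0.18) to CORIN. For NPR2 (1) they were ANXA2 (0.08), ATPAF2 (0.10) and MRPL4 (0.11). The TRPC2 probe set, like NPPC, had its highest deposited signal on control 4 (86.9) and signals of 3.43 and 2.11 on low-salt 1 and 4, and REG3A, like CORIN, was lowest on low-salt 2 (1.66). These genes were picked for likeness out of many with 7 points each, and the points share the array brightness described above.

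Markers of the other cell types of the ventricle gave 0 genes past an adjusted p of 0.05. Of 10 heart muscle markers, all tested, 1 stood higher and 1 lower at an unadjusted p under 0.05, with a median of -0.02. Over all tested probe sets 5.27% stood higher at that level and 5.78% lower, the shares to set beside each count here. For fibroblasts 8 of 9 were tested, 0 stood at that level, and the summed normalized signal was 13181 to 17702 in controls and 12088 to 16957 in low salt. For smooth muscle, which carries NPR1 and NPR2, 2 of 8 stood higher (median 0.22), CNN1 by 1.19 and DES, which heart muscle cells also express strongly, by 0.75. CNN1 was dim in controls, with deposited signals of 8.18 to 13.3. LMOD1 (0.71), TAGLN (0.38) and SMTN (0.05) were also above 0, and MYH11 (-0.31), MYLK (-0.21) and ACTA2 (-0.07) were below. Other probe sets of MYH11 were at 0.02, 0.05 and 0.57 and that of MYLK at 0.33, against the sign of those named. Those of TAGLN were at 1.28 and 0.83, of DES at 0.77, of CNN1 at 0.38 and of SMTN at 0.01 and 0.13. The sums of the smooth muscle markers, with DES the largest part on most arrays, were 1497 to 2117 and 1748 to 2613. For macrophages 2 of 8 stood higher (median 0.31), with sums of 1531 to 2245 and 1955 to 2668. Adipocyte markers (4 of 6 tested, median 0.31) and erythroid markers (2 of 5 tested, median -0.14) had 0 at that level, with sums of 1021 to 3055 and 38.3 to 85.8 in controls and of 1608 to 3722 and 39.9 to 75.6 in low salt. The part of these cell types in the NPR2 and NPPC values was not tested.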

How the data were processed

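Left ventricular total RNA was labelled with biotin and read on canine Affymetrix arrays of 1 colour, per the labels. The deposited values are linear probe set intensity values, made by the authors with GCOS per the submitters' processing notes. Its version, the summary method and the genome build are not stated in the sources used here, so no coordinates are given. Groups came from the sample titles. After removal of the array maker's 111 control probe sets, log2(value + 16) was quantile normalized, and of the other 42924 probe sets the 14308 with the lowest mean over all 7 arrays were left out. Tests of the other 28616 used limma 3.58.1 (lmFit, eBayes with trend) in R 4.3.3, adjusted by Benjamini-Hochberg, checked on simulated data. Symbols came from the platform annotation, and all 13 member probe sets were matched by gene number to the RefSeq table of UU_Cfam_GSD_1.0. Members and lists were chosen with earlier results of these data known. Named genes are all members, the up to 4 genes of smallest p per pathway list, and the 3 nearest in pattern to NPPB and to members whose brightest tested probe set has an SD over arrays above 0.5; markers of atrial and smooth muscle cells and genes named as too dim were chosen after their values were seen. Arrays carry no read depth, and their number limits the precision.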

Additional observations from a re-analysis of the deposited data

How the results depend on the processing

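Over all alternatives run, 0 member probe sets passed an adjusted p of 0.05, while 0 to 3 stood at an unadjusted p under 0.05. NPPC stood there in 13 of 16 fits, and not without control 4 (-0.68), low-salt 1 (-0.79) or low-salt 4 (-0.82), the cause not being tested. NPR2 (1) stood there in 10 of 17 fits and NPR2 (2) in 3 of 17. NPPC kept its sign in all fits that tested it, and so did NPR2 (1), NPR2 (2), NPR3 (1) and FURIN (1). The count over all probe sets, 99, became 39 with an offset of 1, 165 with values as deposited, 27 without a filter, 177 with array weights, 4 by the methods' t-test, 7 with one mean per gene, and 21 to 290 with 1 array left out. With the replicate block it was 27, and NPPC differed by -1.03. Same-numbered arrays deviated with correlations of 0.07, -0.26 and -0.18. These are too few, and carry the array brightness, to tell whether the numbers mark a pairing, which the labels do not state.

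Signs turned as follows, and the cause was not tested. With values as deposited NPR1 was at -0.0915, NPR2 (3) at -0.049, NPR3 (2) at -0.25, NPR3 (3) at -0.23 and the NPR3 mean at -0.12. CORIN was at 0.0132 with an offset of 64 and at 0.00711 with medians set equal, at 0.34 with the replicate block, and at -0.36 to 0.33 with 1 array left out. NPPB ran from -0.00852 (without control 4) to 1.10 (without control 3), FURIN (2), tested in 1 such fit, was at -0.15, and the FURIN mean ran from -0.12 to 0.0596 and was at 0.0173 with an offset of 1 and at 0.0235 with medians set equal. Gene means beyond the planned fit were an alternative chosen after seeing the data.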
